A study of Mus musculus with 6 samples.

Results

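The genes described here are 32 genes of homologous recombination and of the Fanconi anemia pathway, measured by RNA-Seq in germinal center (GC) B cells and resting B cells, called naive here, from Peyer's patches of mice. The list was drawn up by pathway, no expression value entered its rule, and the symbols were looked up among the 39179 Ensembl gene identifiers of the expression table. All 32 were found, and all 32 passed the filter of at least 1 TPM in at least 3 of the 6 samples, which left 12785 genes for testing. TPM gives the transcripts of a gene among 1000000 transcripts, corrected for transcript length, so that levels of different genes can be compared.

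GC B cells were sorted as Fas+GL7+ B cells and naive B cells as Fas-GL7- B cells from the Peyer's patches of the ileum. All mice were female C57BL/6 wild-type littermates, 12 weeks old, and the labels name no treatment for either population. Each population was measured in 3 pools, each made from 5 mice, so that the spread given here is between pools and not between single animals. Resting B cells are defined by what they lack at the surface, and their gate can hold B cells of several kinds.

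Homologous recombination repairs broken DNA by copying from an intact sister molecule. The ends are first cut back to leave a single strand, BRCA1 and BRCA2 with their partners prepare that strand for pairing, and translocases, helicases and nucleases then carry the exchange through and resolve it. The Fanconi anemia (FA) proteins act where the strands of DNA are crosslinked: a core complex adds ubiquitin to the FANCD2-FANCI pair, which brings nucleases to the lesion and hands the break to recombination. Both pathways are known to work mostly in S and G2 phase, and GC B cells divide fast while the deaminase AID damages their DNA.

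Of the 32 genes, 26 were higher in GC than in naive B cells, 3 were higher in naive B cells, and 3 did not pass the test (limma with Benjamini-Hochberg adjustment over all 12785 genes, adjusted p under 0.05). Higher in naive B cells were Fan1, Rad52 and Mus81, and the 3 that did not pass were Fance, Fancf and Wrn. The populations differed widely: 65.6% of all genes tested passed in either direction, 35.5% as higher in GC and 30.1% as higher in naive B cells, so the count of 26 has to be read against that of all genes. Among the 32 genes the median log2 fold change of TPM + 1 (GC minus naive) was 1.26, while over all genes tested it was 0.03. For 8 of the 32 genes the log2 fold change was above 3, which was the case for 2.61% of all genes tested (334 genes). Brip1 passed the filter through the GC pools alone and Fan1 through the naive pools alone, so a difference in these genes was partly set by the filter. These are bulk samples, in which more cells that transcribe a gene and more RNA per cell cannot be told apart.

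Of the 32 genes, 9 had a naive mean under 2 TPM, as had 13.4% of all genes tested, and 8 of these 9 had a GC mean above 10 TPM. The share of all genes tested that met both limits was not computed. Genes low in naive B cells can pass the filter through the GC pools, so these GC levels were partly set by the filter. Rad54b and Eme1 reached 1 TPM in only 1 naive pool each, and Brip1 in none. The median level of the 32 genes was 4.95 TPM in naive B cells against 18.4 TPM over all genes tested, and 20.4 TPM in GC B cells against 19.6 TPM over all genes tested. Levels of the 32 genes also lay closer together in GC B cells, where the SD of their log2 levels was 1.10, than in naive B cells, where it was 1.55.

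The promoters of 25 of the 32 genes were present in the RefSeq table of GRCm38.p6 used here, each running from 250 bases before to 50 bases after the annotated start. They were searched on both strands for letters known from promoters of cell cycle genes: the E2F site (TTTGGCGC, TTTCGCGC, TTTGCCGC or TTTCCCGC), the cell cycle homology region CHR (TTTGAA) and the CCAAT box (CCAAT). E2F letters stood in 4 of the 25 promoters (16.0%), those of Bard1, Brca2, Fancg and Rad51c, and in 2.6% of the 27025 genes of the table. CHR letters stood in 2 of 25 (8.0%), those of Bard1 and Eme1, and in 20.2% of all genes. The CCAAT box stood in 15 of 25 (60.0%) and in 41.1% of all genes, and within a promoter no match overlapped another. Rad54l is in the table with 2 starts, which share its CCAAT box. Of the 6 genes with a promoter and a log2 fold change above 3, E2F letters stood in 1, CHR letters in 2 and the CCAAT box in 4. Among the other 19 genes they stood in 3, 0 and 11. Matching letters describe a sequence and do not show that a factor binds there.

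Promoters are shown for 4 genes of the BRCA axis and its helicase, which rose in GC B cells. They are also shown for Rad52 and Fan1, which were higher in naive B cells and held none of the letters searched. Mus81, also higher in naive B cells, held none of them either. Nor did Fanci and Fancl, which rose in GC B cells. Capitals mark the matches, and sequences are read 5′ to 3′ on the strand of the gene.
Brca1, chr11:101551906-101552205, minus strand, with a CCAAT box from -86 to -82 relative to the start: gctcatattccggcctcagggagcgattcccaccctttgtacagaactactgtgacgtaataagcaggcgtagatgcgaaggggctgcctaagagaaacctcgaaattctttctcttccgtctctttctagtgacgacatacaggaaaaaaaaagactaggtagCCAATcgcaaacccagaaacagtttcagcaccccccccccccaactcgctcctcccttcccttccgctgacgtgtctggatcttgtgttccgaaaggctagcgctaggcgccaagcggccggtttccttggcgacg
Bard1, chr1:71102923-71103222, minus strand, with CHR letters from -242 to -237 and an E2F site from -209 to -202: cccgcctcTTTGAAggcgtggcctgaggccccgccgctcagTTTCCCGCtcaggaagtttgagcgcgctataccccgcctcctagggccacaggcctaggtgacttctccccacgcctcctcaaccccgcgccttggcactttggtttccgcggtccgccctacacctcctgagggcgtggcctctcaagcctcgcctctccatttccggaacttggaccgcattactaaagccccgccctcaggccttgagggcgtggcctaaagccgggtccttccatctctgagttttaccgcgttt
Brca2, chr5:150522371-150522670, plus strand, with an E2F site on the other strand from -168 to -161: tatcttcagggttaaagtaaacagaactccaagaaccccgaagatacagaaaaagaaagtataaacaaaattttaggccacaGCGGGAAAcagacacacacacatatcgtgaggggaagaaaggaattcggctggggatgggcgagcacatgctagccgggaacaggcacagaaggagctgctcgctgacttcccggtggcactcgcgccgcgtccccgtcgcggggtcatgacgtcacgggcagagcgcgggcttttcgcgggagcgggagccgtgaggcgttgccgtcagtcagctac
Brip1, chr11:86201144-86201443, minus strand, with 3 CCAAT boxes on the other strand, read here as ATTGG: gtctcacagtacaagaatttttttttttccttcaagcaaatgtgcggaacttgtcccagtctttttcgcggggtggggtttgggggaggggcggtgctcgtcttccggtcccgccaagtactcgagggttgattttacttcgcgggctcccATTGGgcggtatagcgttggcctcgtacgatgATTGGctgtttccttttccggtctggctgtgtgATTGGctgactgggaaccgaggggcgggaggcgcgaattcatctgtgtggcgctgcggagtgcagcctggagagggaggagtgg
Rad52, chr6:119902448-119902747, plus strand: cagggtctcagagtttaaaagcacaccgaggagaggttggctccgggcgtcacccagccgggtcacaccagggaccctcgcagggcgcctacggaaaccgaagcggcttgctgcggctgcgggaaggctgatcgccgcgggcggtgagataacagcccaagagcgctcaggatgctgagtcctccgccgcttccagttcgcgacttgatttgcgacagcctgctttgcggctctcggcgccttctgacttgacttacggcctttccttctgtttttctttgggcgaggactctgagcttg
Fan1, chr7:64374007-64374306, minus strand: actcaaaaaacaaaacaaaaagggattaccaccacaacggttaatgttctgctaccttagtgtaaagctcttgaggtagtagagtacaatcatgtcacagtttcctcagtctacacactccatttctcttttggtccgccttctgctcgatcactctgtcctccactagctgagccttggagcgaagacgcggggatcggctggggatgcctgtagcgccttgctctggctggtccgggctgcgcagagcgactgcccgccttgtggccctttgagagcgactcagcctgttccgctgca

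**Figure D1:**
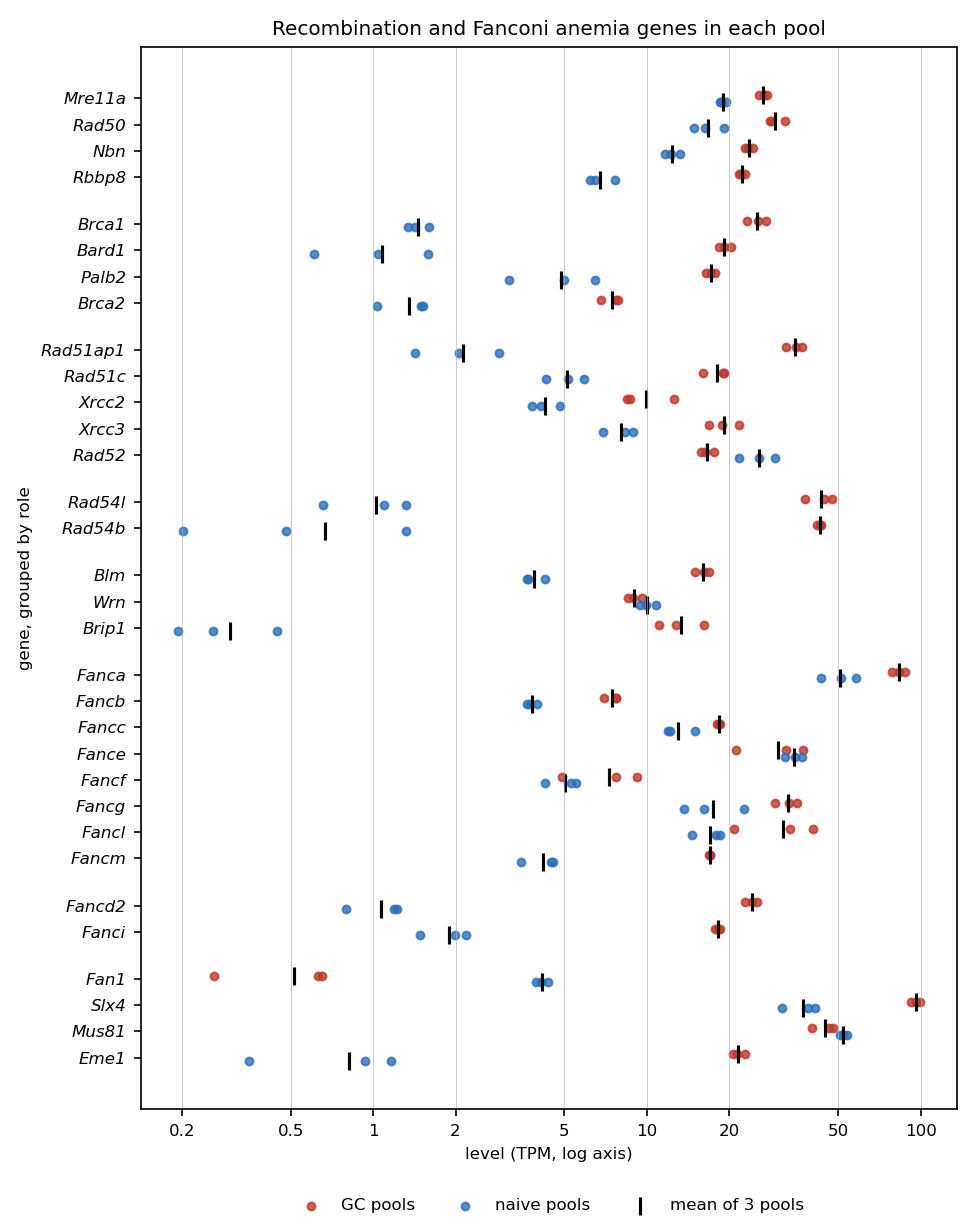
Level of each of the 32 genes in every pool, in TPM on a logarithmic axis, with genes grouped by role; red points are GC pools, blue points naive pools and black bars the mean of 3 pools. For 26 genes all GC points lie to the right of all naive points, and Fan1, Rad52 and Mus81 show the opposite order.

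Of the 32 genes, 4 start recombination by cutting back DNA ends, and all 4 were higher in GC B cells, at log2 fold changes from 0.47 to 1.58. Mre11a, Rad50 and Nbn encode the MRN complex, which binds and trims the ends, and Rbbp8 encodes CtIP, which activates its nuclease. Rbbp8 moved most, from 6.77 ± 0.752 TPM in naive to 22.2 ± 0.539 TPM in GC B cells (SD, n = 3 pools each), 3.28 times as much (log2 fold change 1.58, SE 0.10, adjusted p = 1.73e-05 by limma). Mre11a moved least, with 25.6 to 27.5 TPM in GC pools and 18.5 to 19.5 TPM in the naive pools (log2 fold change 0.47, adjusted p = 0.000761). Rad50 and Nbn lay between them, at log2 fold changes of 0.78 and 0.87. In naive B cells the MRN genes were at 18.9 TPM (Mre11a), 16.8 TPM (Rad50) and 12.4 TPM (Nbn), near or below the median of 18.4 TPM over all genes tested.

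The 4 genes of the BRCA axis, which acts after the ends are cut back, were higher in GC B cells at log2 fold changes from 1.67 to 3.42. Brca1 (ENSMUSG00000017146), a ubiquitin ligase subunit that favors recombination over end joining, measured 25.5, 23.3 and 27.1 TPM in GC replicates 1, 2 and 3 and 1.42, 1.60 and 1.34 TPM in naive replicates 1, 2 and 3. Its obligate partner Bard1 was at 18.3, 19.1 and 20.3 TPM in GC pools and at 1.59, 1.04 and 0.607 TPM in the naive pools. All GC pools lay far above all naive pools for both partners, and their mean levels differed by 17.4 times (Brca1) and 17.8 times (Bard1). The log2 fold changes were 3.42 (SE 0.10, adjusted p = 8.84e-07) for Brca1 and 3.31 (SE 0.18, adjusted p = 1.23e-05) for Bard1 by limma. Palb2, which links BRCA1 to BRCA2, rose from 4.87 ± 1.68 to 17.1 ± 0.660 TPM (log2 fold change 1.67, adjusted p = 0.000586). Brca2, which acts on the single strand, had the lowest GC level of the 4 genes, 7.46 ± 0.585 TPM against 1.35 ± 0.275 TPM in naive B cells (log2 fold change 1.85, adjusted p = 4.27e-05).

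Among the genes that support strand pairing, 4 of 5 genes were higher in GC B cells and Rad52 was higher in naive B cells. Rad51ap1, which promotes pairing of the strands, rose most, with 32.3, 34.9 and 36.9 TPM in GC pools and 1.42, 2.89 and 2.07 TPM in the naive pools (log2 fold change 3.54, SE 0.18, adjusted p = 8.24e-06). Rad51c, Xrcc2 and Xrcc3, which help to assemble the pairing machinery, moved less: Rad51c had a log2 fold change of 1.64, Xrcc3 of 1.15 and Xrcc2 of 1.04. Relative to its mean, Xrcc2 spread most among them in GC B cells, with 12.6 TPM in replicate 1 and 8.46 and 8.68 TPM in replicates 2 and 3. Rad52 (ENSMUSG00000030166; chromosome 6, 119901722 to 119922827, GRCm38.p6), an annealing protein that is a main mediator in yeast and mostly a backup in mammals, stood at 15.8, 16.3 and 17.5 TPM in GC replicates 1, 2 and 3. In naive replicates 1, 2 and 3 it stood at 25.8, 29.5 and 21.8 TPM, all above the GC pools. This made naive B cells 1.55 times as high (log2 fold change -0.60, SE 0.12, adjusted p = 0.00444 by limma).

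The Rad54 translocases, which slide along DNA and drive strand exchange, showed the largest log2 fold changes of TPM + 1 among the 32 genes. Rad54b was at 41.8, 43.4 and 43.1 TPM in GC pools and at 0.203, 0.479 and 1.32 TPM in the naive pools (log2 fold change 4.77, SE 0.24, adjusted p = 7.39e-06 by limma). Rad54l, the gene of RAD54 itself, was at 47.5, 37.9 and 44.4 TPM in GC and at 1.09, 0.657 and 1.32 TPM in naive B cells (log2 fold change 4.46, SE 0.16, adjusted p = 1.66e-06). Both were near the floor in naive B cells, where the Rad54b values correspond to about 5.08, 16.1 and 28.4 reads by the longest annotated transcript. In GC B cells both were above the median level of all genes tested.

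Of the 3 helicases, Brip1 and Blm were higher in GC B cells and Wrn did not pass the test. Brip1 (ENSMUSG00000034329), the BRCA1-binding helicase also called FANCJ, was at 11.1, 16.2 and 12.8 TPM in GC and at 0.446, 0.260 and 0.194 TPM in naive B cells, the lowest naive level of the 32 genes (about 10.1 to 27.0 reads). Its log2 fold change was 3.46 (SE 0.17, adjusted p = 6.45e-06 by limma). Blm, the Bloom syndrome helicase that dissolves joined molecules, was 4.14 times as high in GC B cells (16.0 ± 0.921 against 3.86 ± 0.343 TPM, log2 fold change 1.81, adjusted p = 1.14e-05). Wrn, the Werner syndrome helicase of the same family, was at 9.59, 8.87 and 8.54 TPM in GC and at 9.90, 10.8 and 9.44 TPM in naive B cells (log2 fold change -0.14, SE 0.09, adjusted p = 0.222).

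**Figure D2:**
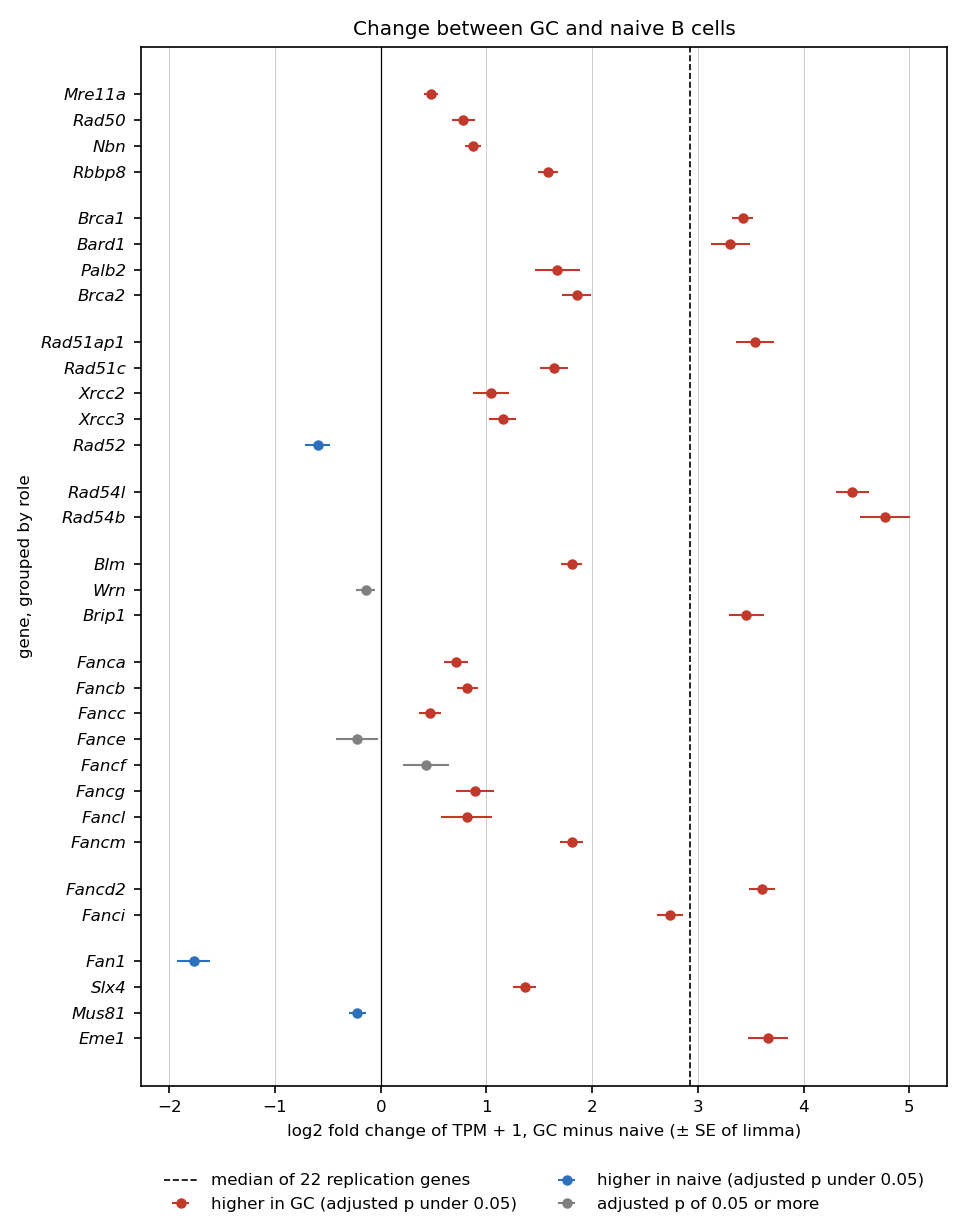
Log2 fold change of TPM + 1 between GC and naive B cells (GC minus naive) for each of the 32 genes, as points with bars of ± SE from limma; red marks genes higher in GC, blue genes higher in naive B cells and gray genes that did not pass. The dashed line is the median of 22 replication genes, 2.92, which 8 of the 32 genes exceeded.

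In the Fanconi anemia pathway 6 genes of the core complex and its anchor, and both genes of the pair the core acts on, were higher in GC B cells. The core and its anchor were represented by 8 genes, of which 6 rose in GC B cells and none fell, while Fance and Fancf did not pass the test. Fancm, the translocase that anchors the core to DNA, moved most of these 8 genes, with 17.0 ± 0.0966 TPM in GC against 4.17 ± 0.601 TPM in naive B cells (log2 fold change 1.81, adjusted p = 2.02e-05 by limma). Fanca, a large scaffold subunit, had the highest level of these 8 genes in both populations, 83.4 ± 4.68 TPM in GC against 50.8 ± 7.61 TPM in naive B cells (log2 fold change 0.71, adjusted p = 0.00159). Fancb, Fancc and Fancg had log2 fold changes of 0.82, 0.47 and 0.89.

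Of the core genes, 3 spread widely among the GC pools, and replicate 1 was the lowest of the GC pools for each of them. Fancl, the ubiquitin ligase of the core, measured 20.8, 33.3 and 40.4 TPM in GC replicates 1, 2 and 3 and 17.8, 18.5 and 14.6 TPM in naive replicates 1, 2 and 3. It passed the test with all pools (log2 fold change 0.81, SE 0.24, adjusted p = 0.0229 by limma), but not without GC replicate 2 (0.75, adjusted p = 0.067), GC replicate 3 (0.61, adjusted p = 0.0574) or naive replicate 3 (0.71, adjusted p = 0.075). Fance, which binds FANCD2 for the core, was at 21.1, 32.2 and 37.2 TPM in GC and at 36.7, 34.8 and 31.9 TPM in naive B cells (log2 fold change -0.22, adjusted p = 0.367). Without GC replicate 1 its log2 fold change was 0.01 (adjusted p = 0.958). Fancf, an adaptor subunit, was at 4.91, 9.19 and 7.73 TPM in GC and at 5.52, 5.30 and 4.26 TPM in naive B cells (log2 fold change 0.43, adjusted p = 0.131), and it passed the test without GC replicate 1 (0.65, adjusted p = 0.0147).

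Both genes of the FANCD2-FANCI pair, the substrate of the core, rose by more than 2 on the log2 scale. Fancd2 was at 22.8, 24.3 and 25.4 TPM in GC pools and at 0.797, 1.19 and 1.23 TPM in the naive pools (log2 fold change 3.61, SE 0.12, adjusted p = 1.39e-06 by limma). Fanci was at 18.1, 17.8 and 18.5 TPM in GC and at 2.0, 2.18 and 1.48 TPM in naive B cells (log2 fold change 2.74, SE 0.12, adjusted p = 4.34e-06). In every GC pool Fancd2 was the higher of the pair, at 1.26 to 1.37 times Fanci in TPM, and in every naive pool it was the lower, at 0.399 to 0.826 times Fanci.

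The 4 nuclease genes split by direction. Fan1 (ENSMUSG00000033458; chromosome 7, 64345385 to 64374128, GRCm38.p6), a nuclease recruited by ubiquitinated FANCD2 that cuts crosslinked DNA, had the largest difference in favor of naive B cells. It measured 0.262, 0.651 and 0.627 TPM in GC replicates 1, 2 and 3 (about 7.39, 16.2 and 15.6 reads) and 3.93, 4.35 and 4.11 TPM in naive replicates 1, 2 and 3. Mean levels were 8.05 times as high in naive B cells (log2 fold change -1.77, SE 0.15, adjusted p = 8.87e-05 by limma), and Fan1 had the lowest GC level of the 32 genes. Slx4, the scaffold that holds several nucleases, had the highest GC level, 96.2 ± 3.43 TPM against 37.1 ± 5.23 TPM in naive B cells (log2 fold change 1.36, adjusted p = 5.77e-05).

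Mus81 and Eme1 encode the subunits of a nuclease that cuts branched DNA, and with all pools Eme1 was higher in GC and Mus81 slightly higher in naive B cells. Eme1, the regulatory subunit, was at 20.7, 21.3 and 22.7 TPM in GC and at 0.351, 0.931 and 1.16 TPM in naive B cells (log2 fold change 3.66, SE 0.19, adjusted p = 8.50e-06 by limma). Mus81, the catalytic subunit, was at 40.0, 47.9 and 46.4 TPM in GC and at 50.6, 52.3 and 53.8 TPM in naive B cells, the highest naive level of the 32 genes. Its difference was small (log2 fold change -0.22, SE 0.08, adjusted p = 0.0452), although all naive pools lay above all GC pools. It did not pass the test without GC replicate 1 (-0.15, adjusted p = 0.0972), without GC replicate 3 (-0.25, adjusted p = 0.0667), or without naive replicate 1, 2 or 3 (adjusted p = 0.0726, 0.0976 and 0.109). A fit without the variance trend (adjusted p = 0.0649) and a fit without the filter (adjusted p = 0.064) did not call it either.

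All GC pools lay above all naive pools for 26 of the 32 genes, as they did for 37.8% of all genes tested. The opposite order held for 3 of the 32 genes and for 32.8% of all genes tested.

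Balance between partners was measured as the log2 ratio of their TPM + 1 within each pool, which does not depend on how a pool was scaled apart from the pseudocount, and compared between populations for 7 pairs with a two-sided exact permutation test. With 3 pools against 3 that test cannot give a p below 0.1, so none of the 7 pairs could pass. Eme1 relative to Mus81 was -1.02 ± 0.11 in GC and -4.90 ± 0.31 in naive B cells (mean ± SD of the log2 ratio, n = 3, exact p = 0.1, adjusted over 7 pairs 0.175). In plain TPM, Eme1 was between 0.444 and 0.518 of Mus81 in the GC pools and between 0.00694 and 0.0216 of it in the naive pools. Fancd2 relative to Fanci was 0.39 ± 0.07 in GC and -0.48 ± 0.29 in naive B cells, a difference of 0.87 (exact p = 0.1, adjusted 0.175).

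Smaller shifts without overlap between the populations were found for Rad51c relative to Xrcc3, with a difference of 0.49, and for Rad50 relative to Mre11a, with a difference of 0.31 (exact p = 0.1 for each). Ratios of TPM + 1 overlapped between GC and naive pools for the other 3 pairs. Brca1 relative to Bard1 was 0.38 ± 0.10 in GC and 0.26 ± 0.33 in naive B cells (difference 0.12, exact p = 0.8). Brca2 relative to Palb2 differed by 0.18 (exact p = 0.4), and Rad54l relative to its paralog Rad54b by -0.31 (exact p = 0.5). In plain TPM the Brca2 ratio did not overlap: 0.413 to 0.450 of Palb2 in the GC pools and 0.230 to 0.329 in the naive pools. With a pseudocount of 0.1 the difference of Brca2 relative to Palb2 was 0.55. Both members of these 3 pairs rose in GC B cells. With the pseudocount of 1, the shifts in their ratio were inside the spread of the naive pools.

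**Figure D3:**
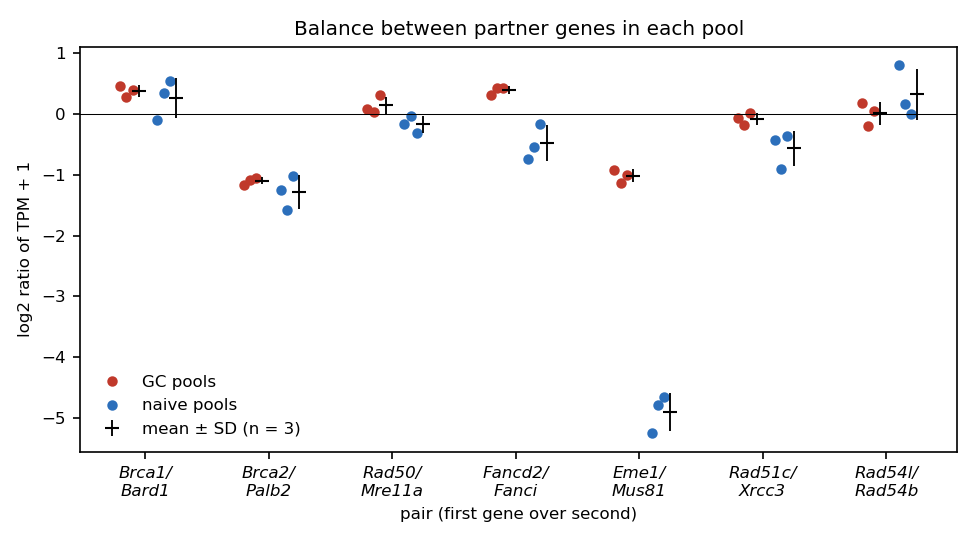
Log2 ratio of TPM + 1 between the genes of 7 pairs in each pool (first gene over second); red points are GC pools, blue points naive pools and black crosses the mean ± SD of 3 pools. Eme1 over Mus81 is near -1.02 in GC and near -4.90 in naive B cells, while Brca1 over Bard1 overlaps between the populations.

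Summed over the 32 genes, 827 ± 31.0 TPM were found in GC B cells and 368 ± 32.2 TPM in naive B cells, 2.25 times as much in GC. Slx4, Fanca and Mus81, the 3 highest genes, made up 27.1% of the GC sum and 38.1% of the naive sum. Without these 3 genes the sums were 602 ± 32.1 and 228 ± 20.3 TPM, a ratio of 2.65. Pools of a population agreed well for most genes: the median coefficient of variation among the 32 genes was 5.91% in GC and 13.8% in naive B cells, where levels were lower.

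Other genes of both pathways were taken from a list of 48, of which 47 were tested. Of these, 30 were higher in GC, 6 were higher in naive B cells and 11 did not pass, with a median log2 fold change of 0.57, beside 35.5% (GC) and 30.1% (naive) of all genes tested that passed as higher. Exo1 and Rad51b passed the filter through the GC pools alone, and without both the median was 0.51. Among the largest differences was that of Fignl1, an ATPase (58.0 ± 1.87 against 2.34 ± 0.491 TPM, log2 fold change 4.15). Others were those of Dna2, a resection nuclease (3.95), Apitd1, a histone-fold partner of FANCM (3.79), and Ube2t, the ubiquitin-conjugating enzyme of the FA core (3.17). Those 4 genes passed with adjusted p of 6.69e-06 or lower (limma), and for each of them all GC pools lay above all naive pools.

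Another 6 pathway genes, higher in naive B cells, moved less. Faap100, which forms a subcomplex of the core with FANCB and FANCL, had the largest of these differences, 8.08 ± 0.672 TPM in GC against 20.8 ± 2.11 TPM in naive B cells (log2 fold change -1.26, adjusted p = 8.02e-05 by limma). Slx1b, the nuclease subunit that works with SLX4, was at -0.37, and Ercc4, another nuclease bound by SLX4, at -0.35 (log2 fold changes). Swsap1, which promotes recombination, was at -0.35, Rmi1, a partner of BLM, at -0.33, and Eme2, the other regulatory subunit of MUS81, at -0.28. Rad51b is listed at 0 in all 3 naive pools and at 4.44, 5.52 and 6.65 TPM in the GC pools, so no fold is given for it.

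Genes of DNA replication and mitosis were set beside these genes because both pathways work in dividing cells. All 22 replication genes and all 14 mitosis genes of the list were higher in GC B cells, with median log2 fold changes of 2.92 and 5.34. Of these, 1 replication gene and 4 mitosis genes passed the filter through the GC pools alone and so had to differ, and without them the medians were 2.91 and 5.34. Of the 32 recombination and FA genes, 24 changed by less than the replication median and 8 by more: Rad54b, Rad54l, Eme1, Fancd2, Rad51ap1, Brip1, Brca1 and Bard1. This split is on the scale of TPM + 1, which understates changes of low genes. A gene close under the median, such as Fanci at 2.74, could lie above it in plain TPM. Summed, the 36 replication and mitosis genes were 7.94 times as high in GC B cells, against 2.25 times for the 32 genes. For genes of end joining, the other main route of break repair, 9 of 14 rose, 1 fell and 4 did not pass, where 35.5% of all genes tested rose and 30.1% fell, the median log2 fold change was 0.43 and the sum was 2.02 times as high in GC B cells. What the share of dividing cells contributed to any of the changes was not tested.

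**Figure D4:**
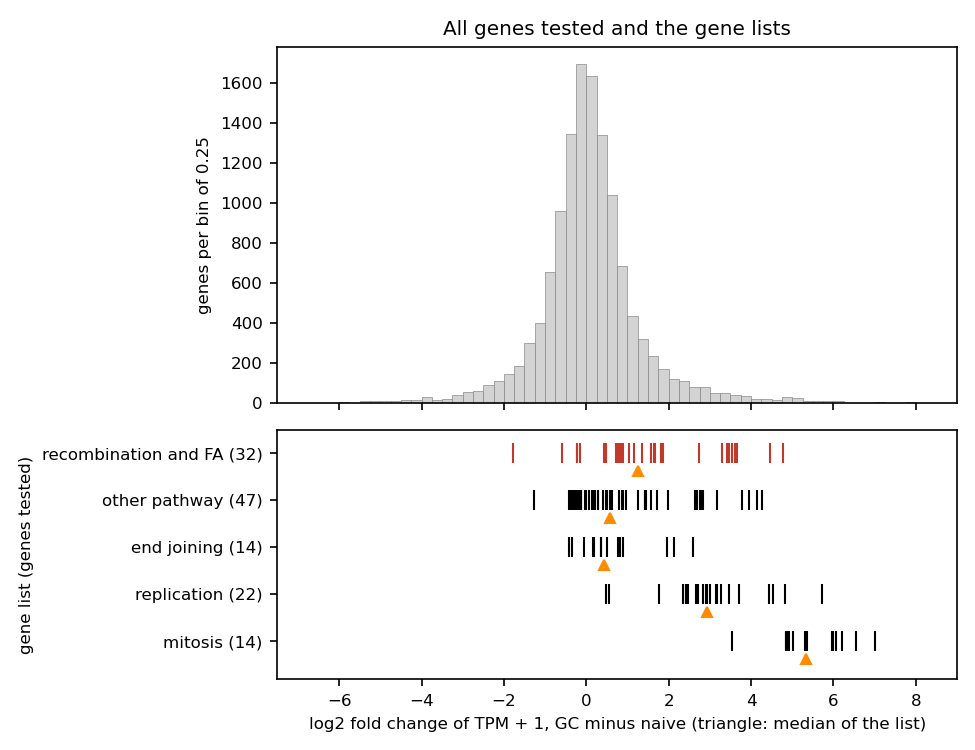
Upper panel, number of genes per bin of 0.25 in log2 fold change of TPM + 1 (GC minus naive) over all 12785 genes tested; lower panel, the same quantity for each gene of 5 lists as a tick, with an orange triangle at the median of each list. The 32 recombination and FA genes are spread from -1.77 to 4.77 with their median at 1.26, to the left of the replication median at 2.92 and the mitosis median at 5.34.

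Labels of the populations were checked with marker genes. Fas, on which the cells were sorted, was at 114 ± 5.55 TPM in GC against 3.22 ± 0.314 TPM in naive B cells, and Mki67, a marker of dividing cells, at 228 ± 1.04 and 0.785 ± 0.107 TPM (SD, n = 3). All 6 GC markers were higher and all 5 measured naive markers lower in GC than in naive B cells, while 5 of 6 B cell markers were higher in naive B cells, with sums of 4349 to 4386 TPM in GC and 6483 to 6671 TPM in naive pools. Summed T cell markers were at 3.49 to 7.08 TPM in GC and 5.20 to 7.68 TPM in naive pools, and summed myeloid markers at 14.2 to 17.3 TPM in GC and 9.86 to 14.9 TPM in naive pools, with no marker of either list at 0 in all pools. The myeloid sum was mostly Cd68 (mean 13.1 TPM in GC against 5.88 TPM in naive pools), and other myeloid markers had lower means in GC than in naive pools, among them Lyz2 (1.28 against 3.30 TPM), Itgam (0.106 against 1.02 TPM) and Adgre1 (0.0461 against 0.696 TPM), of which Lyz2 did not pass the test and Itgam and Adgre1 were not tested. Epithelial markers moved with the populations: of 9 genes 8 were tested, 6 were higher in naive B cells and 1 in GC B cells, and their sum was 52.4 to 114 TPM in GC and 132 to 171 TPM in naive pools. Krt8, a keratin of simple epithelia, was at 11.9 ± 3.05 TPM in GC against 23.9 ± 4.78 TPM in naive B cells. Plasma cell markers summed to between 787 and 823 TPM in GC and between 219 and 252 TPM in naive pools, mostly through Jchain, and 3 of these 5 genes were lower in GC B cells. The part of other cells in the differences of Fan1, Rad52 and Mus81 was not tested.

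Steps between low values of the expression table put the depth at about 9700000 to 16000000 reads per pool. This is approximate, since only 64.6% to 71.1% of the low values were within 0.15 of a whole read. All read numbers of single genes were computed from this depth and the longest annotated transcript, and they would be lower with a shorter transcript. In the GENCODE annotation of NCBIM37, exons of 10 of the 32 genes overlap a gene on the other strand, and whether reads were assigned by strand was not given in the sources used here. Those genes are Eme1, Fanca, Fancc, Fancd2, Fancf, Fanci, Fancl, Rad54b, Rad54l and Xrcc3, and for them reads of both genes may have been divided by the quantification. Vrk2, which overlaps Fancl, was at 39.4 to 45.4 TPM in GC and 17.8 to 21.1 TPM in naive pools. Gm11832, which overlaps Rad54b, was at 5.98 to 8.28 TPM in GC and 0 to 0.328 TPM in naive pools. Lrrc59 and Mrpl27, which overlap Eme1, were at 94.2 to 99.5 and 78.0 to 84.6 TPM in GC pools. In naive pools they were at 43.9 to 46.3 and 33.5 to 39.2 TPM. Polg, which overlaps Fanci, was at 111 to 121 TPM in GC and 82.3 to 105 TPM in naive pools. Zfp276, which overlaps Fanca, was lower in GC (24.9 to 27.9 TPM) than in naive pools (30.9 to 35.0 TPM). No such overlap was found for Fan1, Rad52 or Mus81.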

How the data were processed

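RNA-Seq was made from 3 pools of GC and 3 pools of naive B cells, each pool from 5 mice. The authors demultiplexed reads with Casava 1.8, removed adapters with cutadapt 1.9, ran RSEM 1.2.25 against the NCBIm38 v75 transcriptome, and deposited the resulting FPKM of every gene in every pool, to 2 decimals. RSEM divides reads shared between genes by a model, so overlapping genes and paralogs are less certain.

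Each pool was rescaled to TPM, and log2(TPM + 1) was fitted in limma 3.58.1 (R 4.3.3; lmFit, eBayes with a trend) for genes that reached 1 TPM in at least 3 pools, with Benjamini-Hochberg adjustment over 12785 genes at 0.05. The pseudocount of 1 understates changes of low genes. Identifiers were named from a symbol table (33398 of 39179). Promoters and gene positions came from RefSeq (GRCm38.p6). Ratios, motifs and figures used Python 3.11.15 with scipy 1.17.1. Fits were tested on simulated data. Nothing in the labels ties pools with the same number to the same mice, so no pairing was used.

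The genes, lists and tests were chosen with earlier results of these data known. Named are all 32 genes, the 5 other pathway genes with the largest change and those against the majority, and Fas, Mki67 and Krt8, of which some are not reported here; Exo1, Rad51b, Jchain, Cd68, Lyz2, Itgam, Adgre1, Vrk2 and Gm11832 were added after their values were seen. Alternatives covered the pseudocount (0.1), filters, scaling, the variance trend, a replicate block and the omission of single pools.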

Additional observations from a re-analysis of the deposited data

How the results depend on the processing

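In all, 47 results were recomputed under 614 alternatives, and 600 of these kept their direction and their side of the threshold, or stayed within the tolerated range of a count. Some could not change: the replicate block leaves every difference of a partner ratio as it was. The block and the fit without the variance trend leave all log2 fold changes as they were, though not the calls. The tolerated range was wide: it took in falls of the counts higher in naive B cells from 3 to 2 (the 32 genes) and from 6 to 4 (other pathway genes). Calls or directions of single genes changed in 12 of 446 alternatives, all in Fance, Fancf, Fancl or Mus81. Without GC replicate 1 the log2 fold change of Fance turned from -0.22 to 0.0071 (range -0.39 to 0.0071 over the 6 pools left out) and Fancf passed the test at 0.65. Fancl was lost without 1 of 3 pools, and Mus81 was lost without 5 of the 6 pools (all except GC replicate 2), without the variance trend and without the filter. Brca2 and Fan1 had no value with a filter of a mean of 5 TPM, which they did not reach. The cause was not tested. The difference in the ratio of Brca1 to Bard1 turned from 0.12 to -0.087 with a pseudocount of 0.1, and lay between -0.067 and 0.26 when each pool was left out, with the negative value without naive replicate 1. Leaving out each pool in turn left 25 to 27 of the 32 genes higher in GC and 2 to 3 higher in naive B cells, and 7656 to 8101 of all genes called.

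The 3 scalings tried changed none of the calls of the 32 genes. Quantile normalization moved the median log2 fold change over all genes by -0.09 and the share of calls higher in GC from 54.1% to 47.8%.

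The replicate block, which treats pools with the same number as pairs, called 7960 genes in place of 8392 and changed no call of the 32 genes. Deviations of GC and naive pools with the same number correlated across genes at 0.08, 0.02 and 0.05 for replicates 1, 2 and 3. Each GC pool correlated best with the naive pool of its own number. Naive replicate 2 correlated slightly better with GC replicate 3 (0.0298) than with GC replicate 2 (0.0225). All these correlations were small, so the check could not decide whether the numbers pair the pools, and the main fit used no pairing.

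Low levels limit the precision for Fan1 in GC B cells and for Brip1, Eme1, Rad54b, Rad54l, Fancd2 and Bard1 in naive B cells, where values of under 2 TPM rest on about 5.08 to 78.8 reads.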
